A study of Homo sapiens with 3 samples.

Results

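The 104 genes described here belong to the respiratory chain and ATP synthase, and most of them code for subunits. They were chosen by name from the 57773 gene IDs counted in the study. The choice took protein-coding genes whose symbols begin with NDUFA, NDUFB, NDUFC, NDUFS or NDUFV (complex I), SDHA to SDHD (complex II), UQCR (complex III), COX4 to COX8 (complex IV) or ATP5 (complex V, the ATP synthase), and the 13 protein genes of the mitochondrial genome. Pseudogenes and the assembly factors of complexes I and II were left out, and no measured value entered the choice. CYC1, cytochrome c1 of complex III, has a symbol outside this choice and is not among the 104. NDUFA4 and NDUFA4L2 were placed in complex IV, to which NDUFA4 is now assigned. In all, 13 genes are mitochondrial and 91 nuclear, and the nuclear genes include 2 readthrough loci (ATP5MF-PTCD1 and NDUFC2-KCTD14) that share exons with a subunit gene. Complex I holds 44 of the genes, complex II 4, complex III 10, complex IV 22 and complex V 22.

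The cells were NB4, a human acute promyelocytic leukaemia line, grown in RPMI medium with fetal bovine serum. The control group was 1 library from cells with a non-targeting short hairpin RNA (shRNA), and the other group was 2 libraries from cells with shRNAs against ARID1B, hairpin 2 in the first library and hairpin 3 in the other. ARID1B belongs to BAF, a complex that moves nucleosomes, and the comparison asks which transcripts differ when it is silenced in this line. PolyA-selected RNA was sequenced. Separate cultures or infections are not stated in the labels. The spread behind a p-value here comes from the 2 ARID1B libraries alone, so it may be technical or a difference between the hairpins.

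Totals were 59997475 to 62954803 counts per library. Counts of 1 gene are given per library or as CPM, counts per 1000000 after scaling by library size and TMM factors. The target, ARID1B, had 5268 control counts, 2209 with hairpin 2 and 2234 with hairpin 3. Its log2 fold change was -1.23 with a standard error (SE) of 0.13 (edgeR quasi-likelihood test, adjusted p = 1.43e-05), so the targeted transcript was lower in both ARID1B libraries. The promyelocyte markers MPO, AZU1 and CD33 were present, with 682719, 8943 and 3273 control counts, while ELANE, neutrophil elastase, had only 10, 4 and 1 counts in the control, hairpin 2 and hairpin 3 libraries. Of the markers of other cells, MS4A1 of B cells, HBA1 of red cells and MYH7 and TNNT2 of muscle were at 0 in all libraries.

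The respiratory chain passes electrons from NADH, through complex I, and from succinate, through complex II, to ubiquinone, then through complex III and cytochrome c to oxygen at complex IV. Complexes I, III and IV pump protons across the inner mitochondrial membrane, and complex V uses the returning flow to make ATP. All complexes but II are built from subunits of both genomes, so the cell has to match transcripts made in the nucleus with transcripts cut from the long polycistronic RNAs of mitochondrial DNA. Acute myeloid leukaemia cells are known to draw on this pathway for ATP.

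Promoters were read for motifs of NRF1, of the ETS factor GABPA and of YY1, known regulators of nuclear respiratory chain genes. The promoters of 4 genes with an unadjusted p under 0.05 between the ARID1B and control libraries are shown, because they span the range from no motif to several. Each run is the 250 bases just before the transcription start, 5′ to 3′ on the gene's strand, from RefSeq on GRCh38.p14, and capitals mark a match to the NRF1 motif (GCGCA, then any base, then GCGC) or to CCGGAAG (ETS) on either strand. ATGGCGGC (YY1) was also searched and matched in none of these 4.
COX7C: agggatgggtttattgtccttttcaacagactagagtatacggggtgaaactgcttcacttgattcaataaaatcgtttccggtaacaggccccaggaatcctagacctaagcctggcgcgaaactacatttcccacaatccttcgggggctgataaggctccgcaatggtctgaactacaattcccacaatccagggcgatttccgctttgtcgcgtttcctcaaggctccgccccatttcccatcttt
NDUFA13: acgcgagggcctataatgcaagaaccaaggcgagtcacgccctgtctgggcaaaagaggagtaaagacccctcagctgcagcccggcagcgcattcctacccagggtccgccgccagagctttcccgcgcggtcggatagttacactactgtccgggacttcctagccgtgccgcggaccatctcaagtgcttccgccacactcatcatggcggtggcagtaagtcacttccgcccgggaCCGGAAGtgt
NDUFS3: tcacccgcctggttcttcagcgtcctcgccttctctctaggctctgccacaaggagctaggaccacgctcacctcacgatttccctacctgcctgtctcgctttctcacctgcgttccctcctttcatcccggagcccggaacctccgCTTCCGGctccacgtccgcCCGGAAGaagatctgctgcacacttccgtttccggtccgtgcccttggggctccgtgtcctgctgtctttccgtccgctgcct
UQCR11: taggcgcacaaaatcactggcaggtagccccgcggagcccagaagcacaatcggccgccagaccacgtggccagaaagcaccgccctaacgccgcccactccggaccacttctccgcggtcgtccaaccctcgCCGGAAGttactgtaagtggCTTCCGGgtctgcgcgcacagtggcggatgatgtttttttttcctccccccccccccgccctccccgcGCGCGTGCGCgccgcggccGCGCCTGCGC
These windows lie at chr5:86617691-86617940 (plus strand) for COX7C, chr19:19515975-19516224 (plus) for NDUFA13, chr11:47578824-47579073 (plus) for NDUFS3 and chr19:1605463-1605712 (minus) for UQCR11. COX7C, with the largest fold change of the 97 genes, had no match to these letters in its window. NDUFA13 had 1 ETS match, 10 bases from the start, NDUFS3 had 2 ETS matches, 102 and 83 bases from it, and UQCR11 had 2 of each kind.

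Windows were found for 68 of the 89 nuclear subunit genes, 81 windows in all. The NRF1 letters were present in 14 of them (17.3%, against 6.56% of the 22199 windows of coding genes), the ETS letters in 18 (22.2% against 10.7%) and the YY1 letters in 3 (3.70% against 1.39%). At least 1 of the 3 motifs was present in 33 windows (40.7% against 17.2%). A match is a description of the sequence, not evidence of a bound site.

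The levels of these transcripts in NB4 cells were compared within the libraries. Of the 104 genes, 97 passed the filter on low counts, and the lowest count of any of them in a library was 140 (NDUFA4L2 under hairpin 3), so none passed through a high value in 1 group only. The 7 that did not pass are alternative isoforms or relatives of subunit genes, most of them known from other tissues. COX6A2 and COX7A1, the isoforms of heart and skeletal muscle, had 0 and 1 counts, respectively, in every library. COX4I2, known from lung, and COX7B2, a testis form, had 0 counts throughout, a count compatible with levels up to 0.0483 CPM in the control, 0.0499 under hairpin 2 and 0.0481 under hairpin 3 (3 counts, counting error only). COX6B2, known from testis, had 1, 6 and 3 counts in the control, hairpin 2 and hairpin 3 libraries. COX8C had 8, 8 and 3 counts and ATP5MGL, a relative of ATP5MG, had 4, 4 and 5. Their widely expressed counterparts carried nearly all counts of each isoform pair. COX4I1 had 12584, 14925 and 13991 counts, COX6A1 5131, 6387 and 6198, and COX6B1 2864, 2969 and 3168. COX7A2 had 3274, 3430 and 3739 counts, COX7B 3707, 4031 and 4232, and COX8A 5834, 7197 and 7136. NDUFA4 had 4239, 4751 and 5237 counts against 161, 163 and 140 for NDUFA4L2, its relative known as a hypoxia-induced gene.

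Compared per kilobase of transcript, the mitochondrial transcripts stood above every nuclear one. Their mean over the 3 libraries ran from 1236 CPM per kilobase for MT-ND5 to 8986 for MT-ATP8. MT-ND6, the only one of the 13 made from the light strand, stood at 1279, close to MT-ND5, and MT-ND3 at 1285. Strand use in the counting is not given, so reads from the opposite strand may be in the MT-ND6 count. All these levels are those of polyA-selected RNA. MT-ATP8 shares 22.2% of its length with MT-ATP6, and how reads in the overlap were assigned is not given in the sources used here, so its level is uncertain. MT-ND4 (6748), MT-CO3 (6830) and MT-ATP6 (7122) followed below it, and MT-CYB stood at 3464. The highest nuclear transcript, ATP5F1B, the catalytic beta subunit of ATP synthase, reached 482 CPM per kilobase, with 432 in the control, 508 under hairpin 2 and 508 under hairpin 3. It was followed in complex V by ATP5F1A, the alpha subunit, at 327, and the lowest there of the genes that passed the filter was ATP5S, a coupling factor now called DMAC2L, at 12.5. In complex III the hinge protein gene UQCRH was highest, at 323, and its intronless copy UQCRHL lowest, at 4.80. These 2 genes are near-identical in sequence, so reads may be split between them, and their summed level was 198 CPM in the control, 209 under hairpin 2 and 210 under hairpin 3 (209.96 before rounding). In complex IV, COX5A (285) and COX4I1 (284) were highest, and NDUFA4L2 (2.14) was lowest of the genes that passed the filter. In complex II, SDHD stood at 140, SDHA at 90.9, SDHC at 82.4 and SDHB at 71.5. Complex I ran from NDUFA9 at 12.4 to NDUFS3, a core subunit of its matrix arm, at 223. Annotated transcript lengths differ widely for some genes. When the merged length of all exons was used, the extremes of complex I became NDUFA5 and NDUFS5, those of complex II SDHC and SDHA, and the highest of complex IV COX8A, while UQCRH, UQCRHL, ATP5F1B, ATP5S and NDUFA4L2 kept their places.

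**Figure D1:**
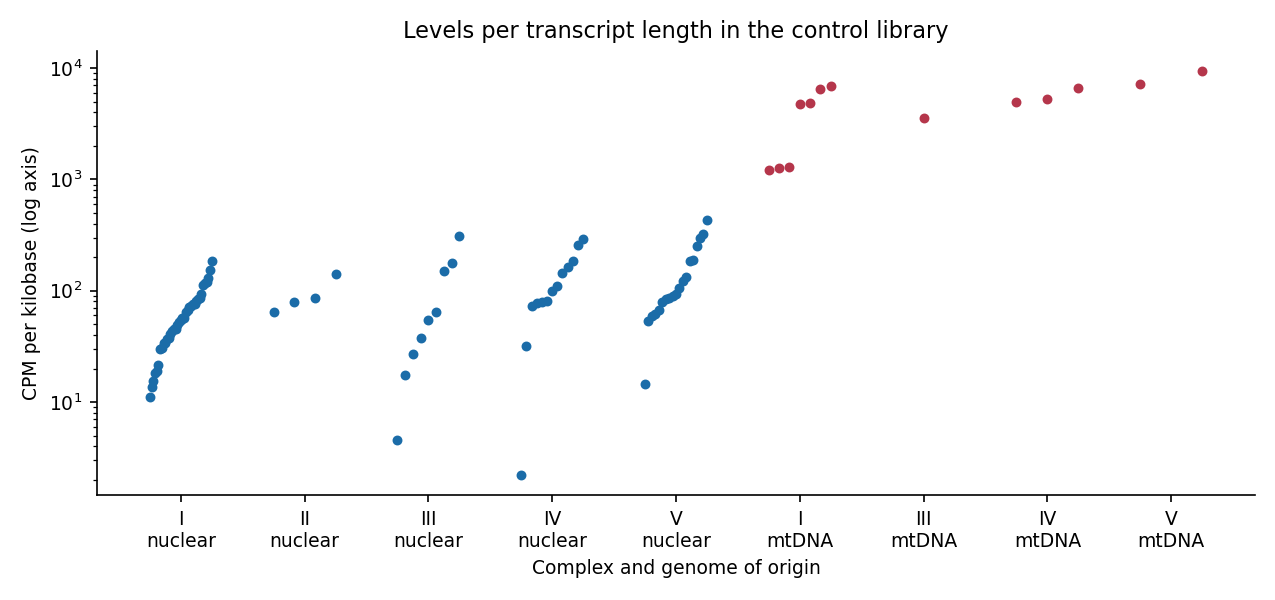
Level in the control library of each gene with a mean CPM of at least 1, readthrough loci left out. Values are CPM per kilobase of transcript on a log axis, by complex and genome of origin (mtDNA, mitochondrial DNA). Each point is 1 gene, sorted within its column. The mitochondrial transcripts all lie above the nuclear ones, and NDUFA4L2 is the lowest point of complex IV and of the plot.

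Between the ARID1B hairpins and the control, no gene of the respiratory chain passed the test. Nuclear subunit transcripts were slightly higher in the ARID1B libraries as a group, at 110.1% and 110.5% of the control when summed under hairpins 2 and 3, and the mitochondrial ones slightly lower, at 95.8% and 98.2%. In edgeR's quasi-likelihood test with Benjamini-Hochberg adjustment over all 20382 genes tested, 0 of the 97 genes were called higher and 0 lower at an adjusted p under 0.05, where 8.7% of all genes tested were called (5.49% higher, 3.21% lower) and 11.8% of protein-coding genes in the CPM range of the nuclear subunit genes. That range, 2.52 to 887 in mean CPM, held 10743 of the 13374 protein-coding genes tested, so it is only a loose match on level. DESeq2 also called 0. At an unadjusted p under 0.05, 11 of the 97 were higher and 1 lower, against 11.4% and 9.37% of all genes tested. The test had 1 residual degree of freedom, its spread came from the hairpin libraries alone, and the control was assumed to have the same spread. With 14.8 prior degrees of freedom, the variance of each gene was borrowed mostly from the other genes. At an adjusted p under 0.10, 3 of the 97 genes were higher (COX7C, NDUFS3 and NDUFA13), where 7.17% of all genes tested were. An exact permutation test over the libraries could not give a p under 0.333.

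How small a difference could have been called bears on this count. The smallest absolute log2 fold change called among protein-coding genes in the same CPM range was 0.42 (TRIM14), and the median of those called was 0.75. The 95% interval of a nuclear respiratory chain gene had a median half-width of 0.28 on the log2 scale, and that of a mitochondrial gene 0.46. The intervals of the nuclear genes reached from -0.69 (ATP5S) to 0.72 (COX7C), and those of the mitochondrial genes from -0.64 to 0.58. Differences of that size are within the intervals, and the absence of a call does not show that levels were equal.

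The median fitted log2 fold change was 0.15 over the 82 nuclear subunit genes tested, readthrough loci left out, and -0.04 over the 13 mitochondrial genes, against -0.01 over all genes tested and 0.02 over the protein-coding genes in the same CPM range. Set against the same control library, hairpin 2 gave a nuclear median of 0.15 and hairpin 3 also 0.15 (log2 CPM differences). The mitochondrial median was -0.07 under hairpin 2, with 3 of 13 genes above 0, and -0.02 under hairpin 3, with 5 of 13, so its size depended on the hairpin. The fold change was above 0 for 70 of the 82 nuclear genes (85.4%) and for 2 of the 13 mitochondrial genes, against 48.5% of all genes tested. Both hairpin libraries are read against the same control library, so their values are not independent of each other. In bulk RNA, fewer cells of a type and less RNA per cell cannot be told apart. The control lay below both hairpin libraries for 67 of the 82 nuclear genes (81.7%) and above both for 7, while it lay below both for 36.9% and above both for 41% of all genes tested and below both for 42.3% of the protein-coding genes in the same CPM range. These shares describe the list and have no test, since its genes share libraries and a pathway.

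**Figure D2:**
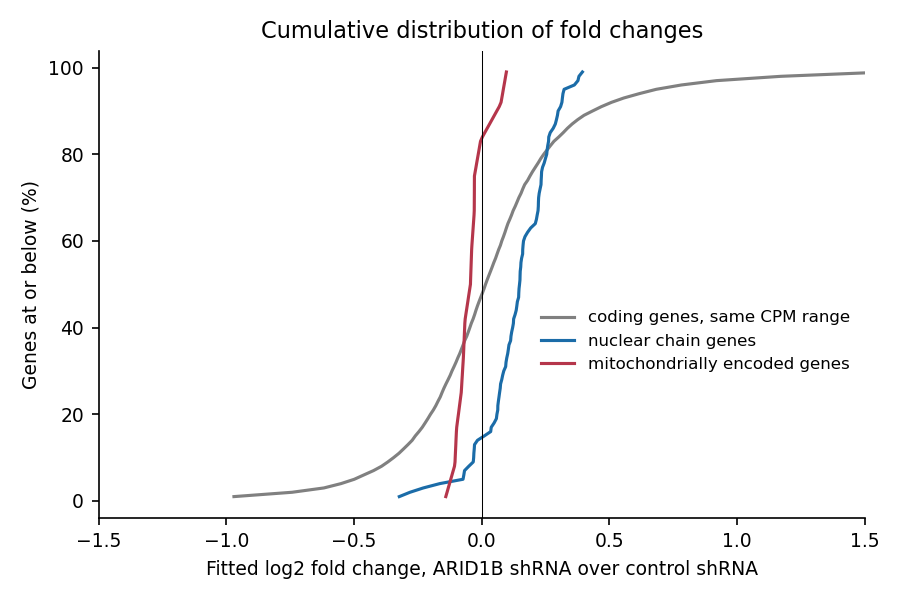
Cumulative share of genes at or below each fitted log2 fold change (ARID1B shRNA over control shRNA) for the 82 nuclear respiratory chain genes, the 13 mitochondrial genes and the 10743 protein-coding genes in the CPM range of the nuclear ones. The nuclear curve crosses its middle at 0.15 and is steep, and the mitochondrial curve at -0.04. The curve of the coding genes in that range, from which respiratory chain genes were not removed, crosses at 0.02 with much longer tails on both sides.

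**Figure D3:**
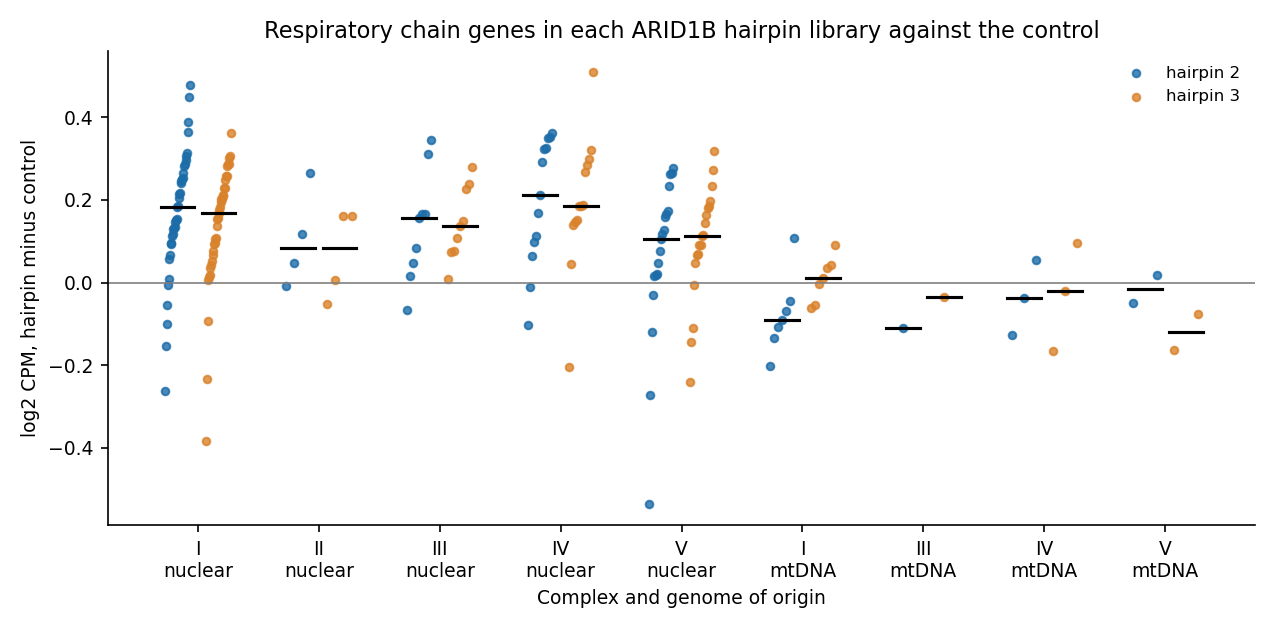
Difference in log2 CPM (prior count 2) of each gene tested between a hairpin library and the control, by complex and genome of origin; points are genes, bars the medians, and both hairpins share 1 control. Nuclear medians lie above 0 in all 5 complexes under either hairpin, and the mitochondrial medians lie below 0 except that of complex I under hairpin 3, which is 0.01.

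As a share of all counts, the 89 nuclear subunit genes took 0.738% in the control, 0.808% with hairpin 2 and 0.802% with hairpin 3. The 95% Wilson intervals were 0.736 to 0.740, 0.806 to 0.811 and 0.800 to 0.804. The 13 mitochondrial genes took 5.24% (5.24 to 5.25), 5.0% (4.99 to 5.0) and 5.06% (5.05 to 5.06) in the same order. These intervals cover the counting error of reads only. No molecular identifiers are named for the reads, so the counting error of RNA molecules is not known. The difference between the 2 hairpin libraries already exceeded these intervals. After scaling, the nuclear sum was 7327 CPM in the control library against 8081 ± 22.9 CPM (SD, n = 2) with the ARID1B hairpins, and the mitochondrial sum 52041 CPM and 50474 ± 880 CPM. The ratio of mitochondrial to nuclear counts was 7.10 in the control, 6.18 under hairpin 2 and 6.31 under hairpin 3, so it was highest in the control library. By complex it was 11.8, 9.86 and 10.8 for complex I, 5.0, 4.41 and 4.58 for complex III, 15.5, 13.2 and 13.2 for complex IV and 2.33, 2.14 and 1.95 for complex V. With 1 control library these ratios have no test.

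**Figure D4:**
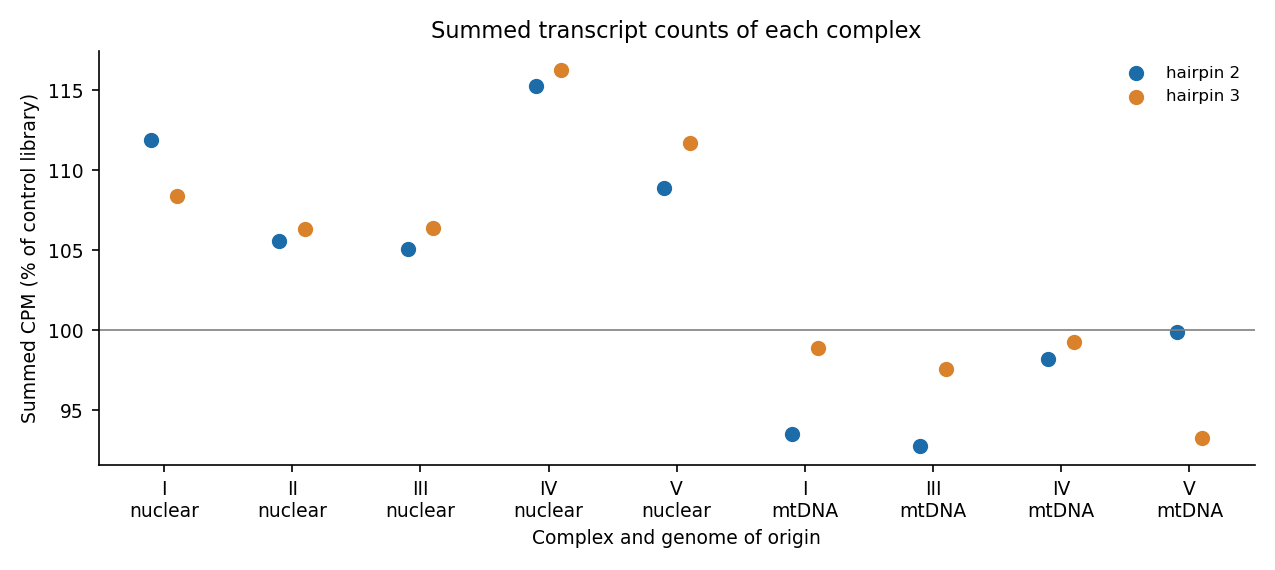
Summed CPM of each complex under each hairpin as a percentage of the control library, for nuclear and mitochondrial (mtDNA) genes separately; the line at 100 is the control. Nuclear sums lie between 105.1% and 116.3% and are highest for complex IV, and mitochondrial sums lie between 92.73% and 99.92%.

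Complex I is the largest, with 37 nuclear genes, and its nuclear sum stood at 111.9% of the control under hairpin 2 and 108.4% under hairpin 3. The median log2 fold change was 0.16, with 33 of 37 genes above 0, and was alike for the 7 nuclear core subunits (0.14) and the 30 accessory ones (0.16). NDUFB9, an accessory subunit of the membrane arm, had 5464 counts in the control, 7371 under hairpin 2 and 6689 under hairpin 3, a log2 fold change of 0.39 ± 0.136 (SE; edgeR adjusted p = 0.10). NDUFA13, an accessory subunit also known as GRIM-19, had 4446, 5872 and 5514 counts, a log2 fold change of 0.38 ± 0.133 (edgeR adjusted p = 0.0984). NDUFS3 had 6737, 8541 and 8693 counts and a log2 fold change of 0.38 ± 0.130 (edgeR adjusted p = 0.0929). In each of these 3 genes both hairpin libraries were above the control, and NDUFB9 was further above it under hairpin 2 (139% of the control CPM) than under hairpin 3 (122%). NDUFA13 shares 16.14% of its exon length with AC011448.1 (4438 control counts) and NDUFS3 19.65% with PTPMT1 (2808). Both overlaps are on the same strand, so part of the counts may belong to those genes. NDUFB3 (0.30) and NDUFS8 (0.30), an iron-sulphur core subunit, had unadjusted p-values under 0.05 as well.

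The nuclear genes of complex I did not all lie on the same side of the control. NDUFA8, an accessory subunit on the intermembrane side, had 1773 counts in the control, 1432 under hairpin 2 and 1364 under hairpin 3, a log2 fold change of -0.32 ± 0.141 (edgeR adjusted p = 0.201). NDUFA10 had 7071, 6161 and 6036 counts (-0.19 ± 0.127, edgeR adjusted p = 0.441). Both genes were below the control in each hairpin library. NDUFV1, which binds NADH and the flavin and has the most counts of the nuclear complex I genes, had 14419, 13440 and 13583 counts (-0.07 ± 0.132). NDUFB6, another membrane arm subunit, had 1768, 1721 and 2122 counts, at 101% of the control CPM under hairpin 2 and 120% under hairpin 3 (119.5% before rounding).

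The 4 genes of complex II, the only complex with no mitochondrial subunit, were close to the control, with a median of 0.08 and a sum at 105.6% and 106.3% of it. SDHA, the flavoprotein that oxidises succinate, had 11328 counts in the control, 11341 under hairpin 2 and 12712 under hairpin 3 (0.11 ± 0.134). SDHB, the iron-sulphur subunit, had 4630, 5388 and 5193 counts (0.21 ± 0.130, interval -0.06 to 0.49). SDHB was the one of the 4 with the largest difference, and both hairpin libraries were above the control. Of the membrane anchors, SDHC had 2284, 2401 and 2303 counts (0.06 ± 0.135) and SDHD 7596, 7308 and 7356 (-0.03 ± 0.128).

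In complex III, 8 of 9 nuclear genes had a fold change above 0, with a median of 0.13 and a sum at 105.1% and 106.4% of the control. The small subunit genes UQCR11 and UQCR10 had the largest. UQCR11 had 1256 counts in the control, 1545 under hairpin 2 and 1531 under hairpin 3 (0.31 ± 0.145, edgeR adjusted p = 0.229), and UQCR10 had 1736, 2086 and 2039 (0.27 ± 0.138, edgeR adjusted p = 0.293). Both lay above the control in each hairpin library. UQCR11 shares 10.93% of its exon length with AC005943.1 (2785 control counts), so part of its counts may belong to that gene. The core protein gene UQCRC2, with the most counts of the 9, had 15740, 14555 and 15895 counts (-0.03 ± 0.134), with the control between the hairpin libraries. UQCRFS1, the Rieske iron-sulphur protein, had 3752, 4074 and 4061 (0.14 ± 0.129). UQCRHL had 611, 598 and 724 counts (0.13 ± 0.177). CYC1, which is not among the 9 and enters neither the median nor the sum, had 6789, 6930 and 6754 counts (0.03 ± 0.129).

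Complex IV had the highest nuclear median, 0.22 over 13 genes tested, and the highest sum, 115.3% of the control under hairpin 2 and 116.3% under hairpin 3. COX7C, a small structural subunit, had 6733 counts in the control, 8327 under hairpin 2 and 9615 under hairpin 3, which was 108 CPM against 146 ± 11.1 CPM (SD, n = 2). Both hairpin libraries were above the control, at 128% and 142% of its CPM. The log2 fold change was 0.43 ± 0.135 (SE), and its adjusted p of 0.0588 in edgeR was the smallest of the respiratory chain genes. Among the alternatives it passed the threshold only with edgeR's legacy fit (adjusted p = 0.0467), which called 2066 genes in all, and over all of them the adjusted p ran from 0.0467 to 0.470. COX6C had 3020, 3665 and 3786 counts (0.32 ± 0.130, edgeR adjusted p = 0.158), and the ubiquitous isoforms COX8A (0.32 ± 0.130) and COX6A1 (0.32 ± 0.130) were close to it. All 3 lay above the control in each hairpin library. COX8A and COX6A1 share 34.5% and 13.02% of their exon length with another gene each, so part of their counts may belong to those genes. COX4I1, the regulatory subunit, was at 0.22 ± 0.137 and NDUFA4 at 0.26 ± 0.130, while COX5A, with 10321, 9302 and 10687 counts, was at -0.03 ± 0.133. COX7A2L, which takes part in joining complexes III and IV, was at 0.07 ± 0.132, COX7A2 at 0.15, COX7B at 0.18, COX6B1 at 0.12 and NDUFA4L2 at -0.07 ± 0.265.

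**Figure D5:**
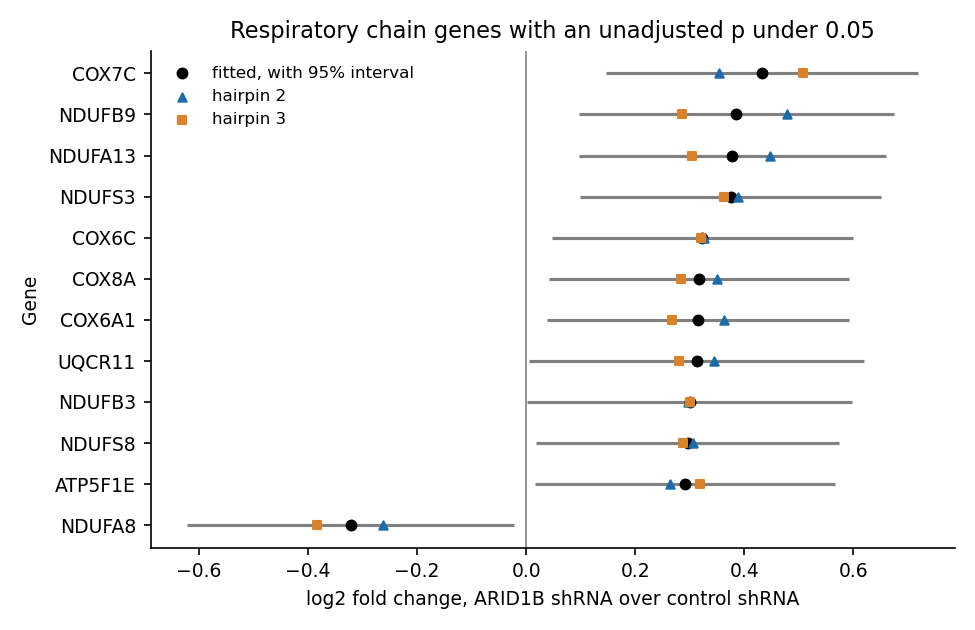
Respiratory chain genes with an unadjusted p under 0.05: fitted log2 fold change with its 95% interval (black), and the log2 CPM difference of hairpin 2 (triangles) and hairpin 3 (squares) from the shared control. Of the 12 genes, 11 lie above 0 and NDUFA8 lies below, and the intervals of UQCR11 and NDUFB3 end close to 0.

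ATP synthase had a nuclear median of 0.10 over 19 genes tested and a sum at 108.9% and 111.7% of the control. The 5 subunits of its F1 part, ATP5F1A to ATP5F1E, had a median of 0.22 and ran from -0.07 (ATP5F1D) to 0.29 (ATP5F1E). ATP5F1B had 49299 counts in the control, 56171 under hairpin 2 and 58197 under hairpin 3 (0.23 ± 0.161), and ATP5F1A had 38444, 41947 and 46621 (0.22 ± 0.156). Together these 2 genes took 19.3%, 20.2% and 20.8% of all nuclear respiratory chain counts, and they weigh more in the nuclear sum than in the medians. ATP5F1E, the epsilon subunit, had 6218, 7226 and 7788 counts (0.29 ± 0.130, edgeR adjusted p = 0.208). Also in the F1 part, ATP5F1C was at 0.06 and ATP5F1D, the delta subunit, at -0.07. ATP5IF1, the inhibitor that stops the enzyme from running backwards, had 2088, 2452 and 2385 counts (0.23 ± 0.136).

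The 3 genes for the c-ring, which code for the same mature protein with different import sequences, did not lie on the same side of the control. ATP5MC2 had 16451 counts in the control, 13198 under hairpin 2 and 13982 under hairpin 3 (-0.26 ± 0.132, edgeR adjusted p = 0.295). ATP5MC3 had 9958, 10376 and 11046 counts (0.12 ± 0.131) and ATP5MC1 had 3098, 3254 and 3312 (0.10 ± 0.130). ATP5MC2 thus made up 55.8% of c-ring counts in the control, 49.2% under hairpin 2 and 49.3% under hairpin 3, and the summed c-ring level was 475, 446 and 455 CPM. ATP5S had 1271, 849 and 1154 counts (-0.33 ± 0.170, edgeR adjusted p = 0.299). Its hairpin libraries were further apart than those of any other respiratory chain gene with a mean CPM of at least 5, at 69.0% and 90.4% of the control CPM. NDUFB6, UQCRHL, MT-ND2 and NDUFB9 came next.

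The 13 mitochondrial genes differed little from the control and had wide intervals. The control lay above both hairpin libraries for 7 of them, below both for MT-ND3 and MT-CO3, and between them for the other 4. In complex I, MT-ND1 had 288731 counts in the control, 271185 under hairpin 2 and 297133 under hairpin 3 (-0.004 ± 0.228), and MT-ND2 had 305320, 257194 and 305923 (-0.10 ± 0.231). MT-ND2 was the mitochondrial gene furthest apart between the hairpins, at 87.0% of the control CPM under hairpin 2 and 99.8% under hairpin 3. MT-ND4 had 595112, 549067 and 572621 counts (-0.07 ± 0.268) and MT-ND4L, whose transcript is joined to it, had 120374, 108233 and 116437 (-0.08 ± 0.184). MT-ND5 had 141952, 125168 and 146681 counts (-0.04 ± 0.196), and MT-ND6 had 42448, 38626 and 42906 (-0.04 ± 0.153). MT-ND3, with the fewest counts of the 13, had 26351, 27519 and 28163 (0.10 ± 0.143). It took 0.815%, 0.918% and 0.884% of the mitochondrial counts.

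MT-CYB, the only mitochondrial gene of complex III, had 253615 counts in the control, 227775 under hairpin 2 and 248470 under hairpin 3 (-0.07 ± 0.219). In complex IV, MT-CO1 had 501134, 472586 and 496165 counts (-0.03 ± 0.259). MT-CO2 had 209038, 185489 and 187200 counts, the largest difference among the 13 (-0.15 ± 0.206, interval -0.58 to 0.29). MT-CO2 lay below the control in both hairpin libraries, while MT-CO3, with 321128, 322710 and 344589 counts, lay above it in both (0.07 ± 0.236). In complex V, MT-ATP6 had 305165, 299124 and 290673 counts (-0.03 ± 0.230) and MT-ATP8 had 121189, 113493 and 108598 (-0.10 ± 0.186). Nuclear pseudogene copies of mitochondrial genes held 6989, 6956 and 8549 counts over 386 IDs, far fewer than the genes themselves.

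Genes around the chain were read from lists of its partners, assembly factors and regulators. None of their members passed the test in edgeR, in either direction, out of 7 partners of complexes III and IV, 16 assembly factors of complex I, 4 of complex II, 6 of complex III, 21 of complex IV and 5 of complex V. The medians were 0.11, 0.01, -0.09, -0.14, 0.04 and 0.09 in that order, against 0.15 for the nuclear subunit genes and -0.01 for all genes tested. Cytochrome c, CYCS, had 12072 counts in the control, 12933 under hairpin 2 and 12810 under hairpin 3 (0.11 ± 0.133). COX17, the copper chaperone of complex IV, had 683, 947 and 940 counts (0.49 ± 0.162, edgeR adjusted p = 0.0796). CYCS and COX17 were picked from their lists after their values were seen. The 25 genes of mitochondrial transcription, RNA handling and DNA maintenance had a median of -0.02, the 12 nuclear regulators -0.02 and the 14 genes of the tricarboxylic acid cycle 0.02, again with 0 called in edgeR. Beside these counts of 0, 8.7% of all genes tested were called, and the lists are short.

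TFAM, which packages mitochondrial DNA and starts its transcription, had 7291 counts in the control, 6926 under hairpin 2 and 7518 under hairpin 3 (0.006 ± 0.128). The mitochondrial RNA polymerase POLRMT had 5290, 4800 and 4877 counts (-0.11 ± 0.127), and LRPPRC, which stabilises mitochondrial messengers, had 42000, 36494 and 40631 (-0.10 ± 0.152). POLRMT and LRPPRC lay below the control in both hairpin libraries. Of the nuclear factors, NRF1 had 1654, 1257 and 1524 counts (-0.23 ± 0.148, edgeR adjusted p = 0.418) and GABPA had 3052, 3069 and 3088 (0.03 ± 0.130). The coactivator PPARGC1A was barely present, with 6, 12 and 20 counts (1.42 ± 0.729), and PPARGC1B had 2733, 2748 and 2492 (-0.04 ± 0.137). The sign of TFAM and of GABPA turned with other scaling factors, at -0.04 and -0.02 with upper quartile factors.

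The mitochondrial ribosomal RNAs differed between the hairpin libraries. MT-RNR1 had 46308 counts in the control, 46063 under hairpin 2 and 64543 under hairpin 3 (0.27 ± 0.186), and MT-RNR2 had 285084, 281989 and 337079 (0.14 ± 0.236). Their sum was 102.2% of the control CPM under hairpin 2 and 120.7% under hairpin 3, so the control and hairpin 2 libraries were close and hairpin 3 was higher. The part of this difference in the values of the mitochondrial protein genes was not tested. The summed promyelocyte markers differed between libraries, at 11360 CPM in the control, 14410 under hairpin 2 and 12390 under hairpin 3. Most of this sum was MPO alone, at 10990, 13900 and 11900 CPM in the same order. MPO was not called (0.23 ± 0.295, edgeR adjusted p = 0.733), so the sum says little about the other markers. Of the 6 markers, 1 was called higher (PRTN3, 2.11) and 1 lower (CTSG, -1.81). Of all genes tested, 5.49% were called higher and 3.21% lower. Among the T and B cell markers, CD3D was called higher (292, 595 and 704 counts), and the summed level of these 4 markers was 5.57, 10.4 and 11.8 CPM. Among the 4 muscle markers CKM was called higher (11, 49 and 35 counts), with a summed level of 0.177, 0.865 and 0.577 CPM. The part of these in the respiratory chain values was not tested.

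The median log2 fold change was 0.16 over the 30 genes tested with at least 1 of the NRF1, ETS and YY1 motifs in a promoter window and 0.15 over the 34 without. For the NRF1 letters it was 0.11 with and 0.16 without, and for the ETS letters 0.21 with and 0.15 without. These differences have no test. NDUFA8, the only gene below the control at an unadjusted p under 0.05, had no match in its window.

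Overlap with neighbouring genes limits some values. Of the 82 nuclear genes, 12 share over 20% of their exon length with another gene, among them ATP5ME (61.6%, with MYL5), NDUFB11 (44.9%, with RBM10) and NDUFA1 (44.5%, with RNF113A). Their median log2 fold change was 0.16, and that of the other 70 was 0.15. The other 70 include genes with smaller overlaps, among them ATP5MF (7.78%) and NDUFC2 (16.25%). This split therefore does not separate affected from unaffected genes. The readthrough locus ATP5MF-PTCD1 had 6584, 7053 and 7246 counts and ATP5MF 5042, 5868 and 5808. NDUFC2-KCTD14 had 2773, 3241 and 3256 counts and NDUFC2 3270, 3772 and 3774, so reads in the shared exons cannot be assigned to either with certainty. Pseudogenes named for nuclear respiratory chain genes held 1685, 1389 and 1614 counts over 159 IDs.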

How the data were processed

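PolyA RNA of 3 NB4 libraries was measured. The authors deposited whole-number read counts per Ensembl gene ID, not normalized. STAR, featureCounts, Cufflinks and the build hg19 are named per the submitters' processing notes, without versions or roles. Annotation, strand use and treatment of multiply mapped reads: not given in the sources used here.

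Names, transcript lengths and exon overlaps came from GENCODE 29 (52338 of 57773 IDs named, the unnamed holding 1.48% to 1.56% of counts), which is on another build. Length is the median over annotated coding transcripts. Counts were tested in R 4.3.3 with edgeR 4.0.16 (filterByExpr at a minimum count of 10, TMM factors of 0.990 to 1.007, glmQLFit with legacy = FALSE, glmQLFTest, two-sided, 0.05 after Benjamini-Hochberg adjustment), with 14.8 prior degrees of freedom. The script was tested on simulated data. Log2 CPM differences of each hairpin from the control used a prior count of 2. Standard errors come from the fold change and the F statistic, and intervals (95%) use the t distribution of the fit. DESeq2 1.42.0, other scaling factors, filters, variance models and thresholds, and each hairpin alone were the alternatives.

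The genes, lists and tests were chosen with earlier results of these data known. Named genes were ARID1B, genes past the threshold, the mitochondrial and SDH genes, the highest and lowest level and the 2 largest changes of each complex, alternative isoforms, the 5 genes furthest apart between hairpins, and fixed list genes. Other genes, among them those with an unadjusted p under 0.05, were named after their values were seen.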

Additional observations from a re-analysis of the deposited data

How the results depend on the processing

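The count of 0 genes called lower was the same under every alternative that gives a test. The count called higher was 0 in all but the legacy fit, with 1 (COX7C), and a threshold of 0.10 on the adjusted p, with 3 (COX7C, NDUFA13 and NDUFS3, where 7.17% of all genes tested were called higher). Without a filter on low counts edgeR called no gene at all, ARID1B included (adjusted p = 0.465), so that setting says nothing about the respiratory chain, and the calls of PRTN3, CTSG, CD3D and CKM were lost there too; CKM was also lost in DESeq2 (adjusted p = 0.328) and against a fold change of 1.2 (0.0689). Upper quartile factors moved the median of all genes to -0.06, called 1841 genes (53.8% of them higher, against 63.1% of 1774 with TMM) and lowered the medians of the respiratory chain genes with it: the nuclear median of complex I from 0.16 to 0.112, II from 0.0843 to 0.036, III from 0.132 to 0.0837, IV from 0.222 to 0.173 and V from 0.104 to 0.0556, and the mitochondrial median from -0.0441 to -0.0922. Relative to the median of all genes these hardly moved (0.172 and 0.171 for complex I, -0.0326 and -0.0325 for the mitochondrial genes). Counts of all genes called were 2058 with library size alone, 960 with a mean CPM of at least 1, 1474 with robust empirical Bayes, 1046 against a fold change of 1.2 and 1042 in DESeq2. The nuclear share of counts was 109.1% of the control share and 108.2% without its most counted gene, ATP5F1B. Values near 0 changed sign for MT-ND1 (0.00561 in DESeq2), with upper quartile factors for NDUFS4 (-0.0109), NDUFV3 (-0.0119), ATP5ME (-0.0431), TFAM (-0.0425) and GABPA (-0.0155), with library size alone for ATP5ME (-0.0107) and TFAM (-0.0104), and where only genes above 1 CPM on average were kept for ATP5ME (-0.00129) and TFAM (-0.000817). The cause was not tested. Leaving out a hairpin leaves 1 library against 1, which gives a value with no test: the nuclear median was 0.152 without either, the mitochondrial median -0.0699 to -0.0201, PPARGC1A 0.846 without hairpin 3 and CKM 1.5 without hairpin 2. It also turned the sign of some values near 0. Among them were MT-ND1 (0.0357) and ATP5ME (-0.00569) without hairpin 2, and NDUFV3 (-0.00526) and TFAM (-0.0278) without hairpin 3. No paired analysis was possible because the groups share no replicate number. With 1 control library, no spread among controls could be measured. Depth limits what can be said of the 7 genes with 8 counts or fewer.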
